A study of Mus musculus with 27 samples.

Results

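The contralateral hemisphere of mice given the compound R55 was compared with the same hemisphere of mice given R33, in 9 of the 27 labelled RNA-seq libraries of the series. The members were chosen by their labels: 5 libraries carried the label R55 and 4 the label R33, all from the uninjected side, with 1 library from each mouse. R55 and R33 are pharmacological chaperones of the retromer, known here by their code names. Every mouse was a 5xFAD animal, a strain in which the Thy1 promoter drives human transgenes with mutations of familial Alzheimer's disease in neurons, so both groups carried the transgenes and no wild-type animal enters this comparison. The mice were females of 16 weeks. Each received 500 nL of a 10 mM solution in the parietal cortex of the other hemisphere, and a cortical block of about 1 mm3 was taken from each side 24 h later, so dose and time were matched. The vehicle held the same cyclodextrin and DMSO in saline, and the 4 vehicle-treated mice with a contralateral library are used as the background. The drug itself was placed on the opposite side, and for its concentration only an estimate that assumes even spreading is given, not a measurement in this tissue.

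The retromer is a protein coat on endosomes that returns receptors and other membrane proteins to the Golgi apparatus or the cell surface. Its cargo core is made of Vps35, Vps26 and Vps29, and in neurons it carries receptors that decide where the amyloid precursor protein is cut. The type I interferon response is the antiviral program of brain cells: interferon binds its receptor, transcription factors that include Stat2 and Irf9 enter the nucleus, and genes such as Ifit3 and Isg15 are transcribed from promoters that carry an interferon-stimulated response element. Microglia, astrocytes and blood vessel cells all run this program, and it is known to be active around amyloid plaques.

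The deposited values are FPKM, the fragments of a gene divided by its length and by the size of the library. Libraries held 25627487 to 31710089 fragments after R55 and 26900723 to 35571029 after R33, and the means did not differ beyond their spread (exact two-sided permutation test, p = 0.175, Benjamini-Hochberg adjusted p = 0.525 over 3 measures of the libraries). The neuronal vesicular glutamate transporter Slc17a7 stood at 473 to 558 FPKM after R55 and 515 to 594 FPKM after R33, and the adult haemoglobin genes Hba-a1 and Hbb-bs were listed at 0 in every library. Mice were labelled with 1 letter (P, Q and R after R55, K, O and N after R33) or with 2 letters (AA and AB after R55, AD after R33), and the meaning of this series is not given. The mean log2(FPKM + 1) of 18 brain endothelial genes was 2.42 to 2.55 in AA, AB and AD and 3.30 to 3.95 in the other libraries of both drugs, and values within a series are given where a result touches them. In bulk tissue, fewer cells of a type and less RNA per cell cannot be told apart.

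No gene passed the adjusted threshold between R55 and R33 when 12976 genes were tested together. With limma on log2(FPKM + 1), 0 genes (0.0%) had an adjusted p under 0.05, and the smallest adjusted p was 0.996. At an unadjusted p under 0.05 there were 264 genes (2.03%), of which 186 measured higher after R55 (1.43%) and 78 lower (0.601%). With median-of-ratios scaling the split was 170 higher and 118 lower, without the R55 mouse P it was 457 and 333, and without the R33 mouse AD 484 and 455. Every R55 library lay above every R33 library in 52 genes (0.401%) and below in 27 (0.208%). The median log2 fold change over all tested genes was 0.01, with the 10th and 90th percentiles at -0.14 and 0.17, and 7123 genes (54.9%) were positive against 5853 (45.1%) negative.

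Dose and time were matched but the mice were not paired, and the intervals say how large a difference could have been missed. The 95% interval of the difference had a median half-width of 0.24 on the log2 scale. It lay wholly within ±0.5, or 1.41-fold either way in FPKM + 1, for 83.0% of genes. It lay within ±1, or 2-fold in FPKM + 1, for 98.3%. For 215 genes it reached beyond ±1. At low levels the same limits allow a larger fold change in FPKM itself. The gene Oas1a, for example, had means of 1.37 and 0.64 FPKM after R55 and R33 and a fold of 1.42 on this scale. A p that misses the threshold does not show that the compounds act alike, and 1 pair of compounds was compared.

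The interferon response and antigen presentation list held the most genes at an unadjusted p under 0.05. All 26 of its members were tested and all 26 were positive, against 54.9% of all genes. Of these, 19 (73.1%) measured higher at an unadjusted p under 0.05, against a background of 1.43%, and the median log2 fold change of the list was 0.50 against 0.01 for all genes. With all 27 libraries fitted together and the correlation within mice modelled, that count was 0 of 26 and the median 0.48. No member reached an adjusted p under 0.05, and in no member were the R55 and R33 libraries fully apart.

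Promoters of this group were searched for the motif that interferon-activated factors are known to bind. The motif GAAANNGAAA, the core of the interferon-stimulated response element, was searched on both strands from 250 bases before to 50 bases after the transcript start in GENCODE, on build GRCm39. It was found in 9 of the 26 promoters of the list (34.6%) and in 404 of 12174 promoters of tested protein-coding genes (3.32%). The list names interferon response genes, so this share does not bear on R55 against R33. The 5 promoters below were chosen, after their values were seen, for their motifs in the 150 bases just upstream of the start. They read 5′ to 3′ along the gene, with the matches in capitals (the motif or, where it lies on the other strand, its reverse complement, with overlapping matches run together). They lie at chr19:34560749-34560898 (plus strand, Ifit3), chr19:34618121-34618270 (plus, Ifit1), chr6:121222707-121222856 (plus, Usp18), chr4:156285304-156285453 (minus, Isg15) and chr8:71990115-71990264 (minus, Bst2).
Ifit3: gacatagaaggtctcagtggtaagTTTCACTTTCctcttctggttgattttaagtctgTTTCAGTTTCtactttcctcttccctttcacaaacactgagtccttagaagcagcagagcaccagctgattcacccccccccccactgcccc
Ifit1: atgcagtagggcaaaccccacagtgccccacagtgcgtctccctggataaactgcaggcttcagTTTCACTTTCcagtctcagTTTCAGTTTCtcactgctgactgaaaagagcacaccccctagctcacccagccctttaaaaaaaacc
Usp18: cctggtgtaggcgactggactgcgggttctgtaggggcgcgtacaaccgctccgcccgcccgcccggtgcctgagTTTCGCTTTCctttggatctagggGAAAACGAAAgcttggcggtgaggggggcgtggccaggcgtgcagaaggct
Isg15: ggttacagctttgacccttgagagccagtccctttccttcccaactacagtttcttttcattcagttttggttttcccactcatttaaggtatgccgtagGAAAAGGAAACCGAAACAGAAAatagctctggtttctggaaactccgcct
Bst2: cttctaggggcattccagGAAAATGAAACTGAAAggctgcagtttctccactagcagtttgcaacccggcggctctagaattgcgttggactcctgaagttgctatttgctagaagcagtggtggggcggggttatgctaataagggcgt

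Ifit3 and Ifit1 each held 2 separate matches, the nearer of which began 92 bases before the start in Ifit3 and 67 bases before it in Ifit1. Isg15 held 3 matches in 1 overlapping run and Bst2 held 2. A match is a description of the letters, and promoters without a match in this window included those of Irf7 and the major histocompatibility genes H2-K1 and H2-Ab1.

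Ifit3, an interferon-induced protein that restrains viral RNA (chr19:34560899-34566443), had the smallest p of the list. After R55 it measured 5.92 FPKM in P, 14.02 in AA, 17.2 in Q, 9.54 in R and 14.8 in AB. After R33 it measured 3.61 in K, 5.77 in O, 5.00 in N and 10.01 in AD. In R55 mice other than P the level was high, P sat among the R33 mice, and AD was the highest R33 mouse and just above R. The means were 12.3 ± 4.5 FPKM (SD, n = 5) and 6.10 ± 2.8 (SD, n = 4), and the log2 fold change was 0.90 with a standard error of 0.28 and a 95% interval of 0.30 to 1.5 (limma, unadjusted p = 0.00637, adjusted p = 0.996). Vehicle libraries stood at 6.73, 3.90, 4.96 and 5.99 FPKM, close to the R33 mice other than AD.

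**Figure D1:**
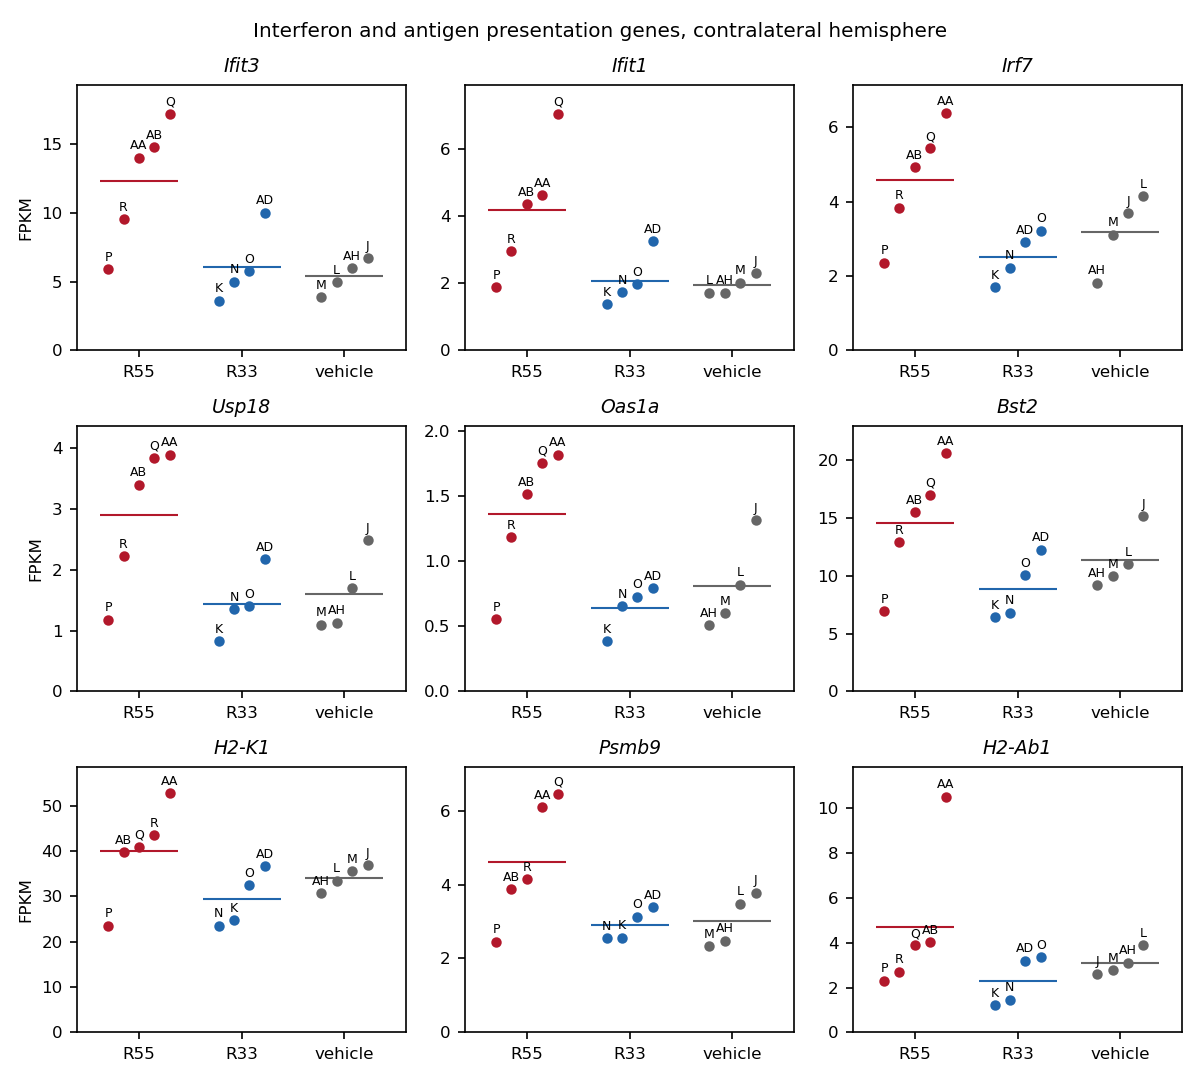
FPKM (vertical axis, linear from 0) of interferon and antigen presentation genes in each contralateral library, 1 point per mouse, for R55, R33 and vehicle, with a line at each group mean. In each panel several R55 points lie above the R33 points and the R55 mouse P lies among or just below them, as for Ifit3, where P was at 5.92 FPKM and the R33 mouse AD at 10.01.

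A like order of mice was seen in the sensors and regulators of the pathway. Irf7, the factor that amplifies interferon production, measured 2.36, 6.38, 5.43, 3.84 and 4.92 FPKM in P, AA, Q, R and AB. In K, O, N and AD it measured 1.70, 3.22, 2.22 and 2.90 FPKM, so that again only P among the R55 mice fell within the R33 range, and the log2 fold change was 0.64 (95% interval 0.16 to 1.12). Ifit1, a relative of Ifit3, measured 1.88, 4.63, 7.05, 2.96 and 4.36 FPKM against 1.37, 1.97, 1.73 and 3.25, a log2 fold change of 0.70 (0.18 to 1.22). Here P and R both lay inside the R33 range. Oas1a, which senses double-stranded RNA, had low levels of 0.554 to 1.82 FPKM after R55 and 0.387 to 0.791 FPKM after R33, a log2 fold change of 0.50 (0.13 to 0.88) with P alone in the overlap.

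Further members were chosen after their values were seen. Usp18, which damps signalling at the interferon receptor, measured 1.18, 3.90, 3.85, 2.23 and 3.40 FPKM in P, AA, Q, R and AB and 0.824, 1.41, 1.35 and 2.18 FPKM in K, O, N and AD. Only P was inside the R33 range, and the log2 fold change was 0.65 (95% interval 0.13 to 1.16). Isg15, a ubiquitin-like protein, and Bst2, a membrane tether for viruses, had log2 fold changes of 0.69 (0.02 to 1.35) and 0.62 (0.07 to 1.17). Ifit3, Oas1a and the class I histocompatibility genes have close paralogs, and how reads shared between copies were counted is not given in the sources used here. Members with the smallest fold changes were Stat2 at 0.14 and Ifi27 at 0.15, neither past an unadjusted p of 0.05.

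Antigen presentation genes were high and low in much the same libraries. H2-K1, a class I histocompatibility chain, measured 23.5, 52.8, 40.8, 43.6 and 39.8 FPKM in P, AA, Q, R and AB. In K, O, N and AD it measured 24.8, 32.4, 23.6 and 36.6 FPKM, with a log2 fold change of 0.41 (95% interval 0.01 to 0.82). P was again lowest and the other R55 mice were above every R33 mouse. Psmb9, a catalytic subunit of the immunoproteasome that cuts peptides for class I chains, had a log2 fold change of 0.47 (0.05 to 0.89) and P was the lowest of all 9 libraries at 2.45 FPKM. The class II chain H2-Ab1 measured 2.31, 10.5, 3.89, 2.71 and 4.02 FPKM after R55 and 1.22, 3.37, 1.46 and 3.21 FPKM after R33, with AA far above the other mice. The class II invariant chain Cd74 had a log2 fold change of 0.72 (-0.06 to 1.51), which did not pass an unadjusted p of 0.05. H2-K1, H2-Ab1 and Cd74 were also chosen after their values were seen.

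As a level over the whole list, the mean log2(FPKM + 1) was 2.33 in P, 3.49 in AA, 3.16 in Q, 2.78 in R and 3.0 in AB after R55. After R33 it was 2.19 in K, 2.59 in O, 2.26 in N and 2.77 in AD, and the vehicle libraries lay at 2.82, 2.5, 2.69 and 2.44. The R55 mice other than P lay above every R33 mouse, R narrowly, and the vehicle mouse J lay just above R. Within the 1-letter mice alone the median log2 difference of the list was 0.42 with 26 of 26 positive (all genes 0.01), and within the 2-letter mice, 2 R55 against 1 R33, it was 0.46 (all genes 0.02).

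The count of interferon genes at an unadjusted p under 0.05 depended on single mice. It was 3 of 26 without K, 8 without N, 7 without AA, 8 without Q, 10 without AB and 23 without P, and the median log2 fold change ran from 0.36 without AA to 0.71 without P. All 26 signs were positive in each of these fits and in the fit over all 27 libraries. Microglial genes were mostly positive with smaller medians, against 54.9% positive among all genes. Homeostatic microglia genes were positive in 15 of 15, disease-associated microglia genes in 20 of 22 and complement genes in 9 of 9. Their median log2 fold changes were 0.18, 0.20 and 0.22. None of these genes passed an unadjusted p of 0.05. Their part in the interferon difference was not tested.

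Genes with the smallest p that measured higher after R55 included more interferon-induced genes from outside the list. Gbp2, a guanylate-binding protein of host defence, measured 2.76, 4.54, 4.85, 3.48 and 3.16 FPKM after R55 and 2.13, 2.81, 1.67 and 2.40 after R33 (log2 fold change 0.54, 95% interval 0.21 to 0.87). Xaf1, an interferon-induced regulator of cell death, measured 2.33, 3.27, 3.31, 2.58 and 2.99 FPKM against 1.98, 2.2, 1.41 and 2.30, and there the groups did not overlap (0.39, 0.13 to 0.66). Gbp2 overlapped only through P, which lay just below O.

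The gene with the smallest p of all was Cdc42ep5, an effector of the cytoskeletal GTPase Cdc42. It measured 1.51, 2.15, 1.92, 1.43 and 1.84 FPKM in P, AA, Q, R and AB, and 0.874, 0.897, 1.2 and 1.17 FPKM in K, O, N and AD. All R55 mice were above all R33 mice, with a log2 fold change of 0.44 (95% interval 0.23 to 0.66, limma unadjusted p = 0.000569, adjusted p = 0.996). Dhrs7, a short-chain dehydrogenase, was also fully apart at 22.2 to 26 FPKM after R55 and 16.9 to 21.7 FPKM after R33 (0.34, 0.15 to 0.53). Its vehicle libraries measured 14.2 to 17.8 FPKM, below every R55 mouse. Ddit4, a stress- and glucocorticoid-induced inhibitor of mTOR signalling, measured 21.7 to 26.7 FPKM after R55 and 15.2 to 21.5 FPKM after R33 (0.37, 0.13 to 0.60), with the R33 mouse AD next to the R55 mouse R. It was the 1 gene of 17 on the glucocorticoid list at an unadjusted p under 0.05 (background 2.03% in either direction). Trip10, a membrane-curving adaptor, and Xrcc6, a DNA end-binding protein, were fully apart with log2 fold changes of 0.30 (0.11 to 0.50) and 0.22 (0.07 to 0.36). Crip1, a small LIM-domain protein, had 0.55 (0.20 to 0.90) with the groups overlapping.

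Genes of vessel walls and matrix formed the next group. Of 21 tested mural, fibroblast and matrix genes 16 were positive and 6 measured higher at an unadjusted p under 0.05 (background 1.43%), with a median log2 fold change of 0.35. Acta2, the actin of smooth muscle, measured 4.48, 6.45, 7.59, 7.90 and 5.57 FPKM in P, AA, Q, R and AB and 5.76, 4.48, 3.40 and 3.29 FPKM in K, O, N and AD. Most R55 mice were above the R33 mice, with K above P and AB (log2 fold change 0.50, 0.17 to 0.83). The collagen gene Col1a2 measured 2.68, 6.97, 4.72, 1.86 and 5.21 FPKM against 1.72, 2.11, 1.32 and 3.75, high in AA, Q and AB only, with a log2 fold change of 0.67 (0.08 to 1.27). Vtn, an adhesion protein of pericytes, had 0.36 (0.06 to 0.66) and Tagln, a smooth muscle actin-binding protein, 0.42 (0.05 to 0.79). The count of 6 became 2 without K or without AA, 1 without Q and 1 without N, 3 without O or without AB, 2 in the 1-letter mice, and 2 with all 27 libraries fitted together and the correlation within mice modelled. Of 18 endothelial genes 0 passed, and their median was -0.04.

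Inflammatory mediators were higher in a few members and not across the list. Of 22 tested cytokine, chemokine and NF-kB genes 20 were positive (background 54.9%) with a median of 0.09. At an unadjusted p under 0.05, 3 measured higher (background 1.43%). Cxcl10, an interferon-induced chemokine that draws T cells, measured 2.04, 5.39, 5.93, 3.0 and 5.04 FPKM after R55 and 0.719, 1.89, 2.07 and 2.95 after R33. Only P among the R55 mice was inside the R33 range, and the log2 fold change was 0.86 (95% interval 0.15 to 1.56). Ccl5, another T cell chemokine, measured 1.17, 3.01, 1.6, 1.27 and 0.840 FPKM against 0.344, 0.140, 0.424 and 1.44 (0.71, 0.20 to 1.22), where AD stood with the R55 mice. Relb, a subunit of NF-kB, had 0.36 (0.12 to 0.60). Of 20 border macrophage and lymphocyte genes only 3 passed the filter on low values. These 3 were positive with a median log2 fold change of 0.52, which is as large as that of the interferon list, and their mean log2 level was 1.23 to 2.01 after R55 and 0.73 to 1.49 after R33. S100a9, a neutrophil protein, was the 1 of these at an unadjusted p under 0.05 (background 2.03%), with 0.52 (0.08 to 0.96). Once a trend with gene length, described below, was removed, 0 of the 3 passed and the median was 0.38. That list was added after values had been seen, and its part in the other differences was not tested.

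Metallothionein 2 (Mt2), which binds zinc and copper, measured 179 to 267 FPKM after R55 and 114 to 184 FPKM after R33. Only AB, the lowest R55 mouse, and AD, the highest R33 mouse, were interleaved, and the log2 fold change was 0.47 (95% interval 0.04 to 0.90). Mt1 at 0.35 (-0.07 to 0.76) and the neuronal Mt3 at 0.24 (-0.15 to 0.63) were positive and did not pass an unadjusted p of 0.05. Alas2, the haem synthesis enzyme of red cell precursors, had 0.58 (0.05 to 1.10).

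Among the 10 genes with the smallest p that measured lower after R55 were guidance and adhesion genes of neurons. Unc5d, a netrin receptor of the axon guidance family (chr8:29136745-29709664), measured 4.68, 2.79, 3.82, 7.11 and 5.07 FPKM in P, AA, Q, R and AB. In K, O, N and AD it measured 9.93, 7.57, 7.57 and 5.78 FPKM, and the log2 fold change was -0.64 (95% interval -1.09 to -0.19). Only R and AD were out of order. Sema3a, a secreted repellent for growing axons, measured 4.73, 3.24, 3.76, 4.69 and 3.69 FPKM against 5.76, 5.91, 5.55 and 4.36 (-0.35, -0.60 to -0.10), again with AD among the R55 mice.

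Negr1, an adhesion molecule of neurons, measured 37.5, 23.2, 33.5, 42.0 and 35.9 FPKM in the R55 mice P, AA, Q, R and AB and 55.9, 50.9, 50.2 and 37.2 FPKM in the R33 mice K, O, N and AD (log2 fold change -0.50, -0.87 to -0.12). Cntnap5a, a neurexin-family adhesion protein, lay between 2.95 and 3.91 FPKM in every R55 mouse, at 5.94, 5.62 and 6.05 FPKM in K, O and N, and at 2.85 FPKM in AD (-0.49, -0.87 to -0.11). AD was thus within or near the R55 range for all of these guidance and adhesion genes. The zinc finger gene Zfp941 was lower in every R55 mouse, at 4.88 to 6.66 FPKM against 6.92 to 8.24 FPKM (-0.34, -0.59 to -0.10). Pcdhb18, a clustered protocadherin with close relatives that may share its reads, was also fully apart at 0.745 to 0.931 FPKM against 0.955 to 1.21 FPKM (-0.21, -0.37 to -0.05). Pcdhga7 had -0.36 (-0.61 to -0.11), but it shares its constant exons with its gene cluster and its own value is uncertain. Cyp4x1, a cytochrome P450 of brain, had -0.32 (-0.56 to -0.08) and the membrane protein Dcbld2 -0.28 (-0.50 to -0.05). The small nucleolar RNA Snora20 was listed at 0 in AA and Q and at 0.635 to 1.22 FPKM in the other R55 mice, against 1.19 to 1.83 FPKM after R33. It is 61 bp long, so these values rest on very few fragments and the difference is uncertain.

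**Figure D2:**
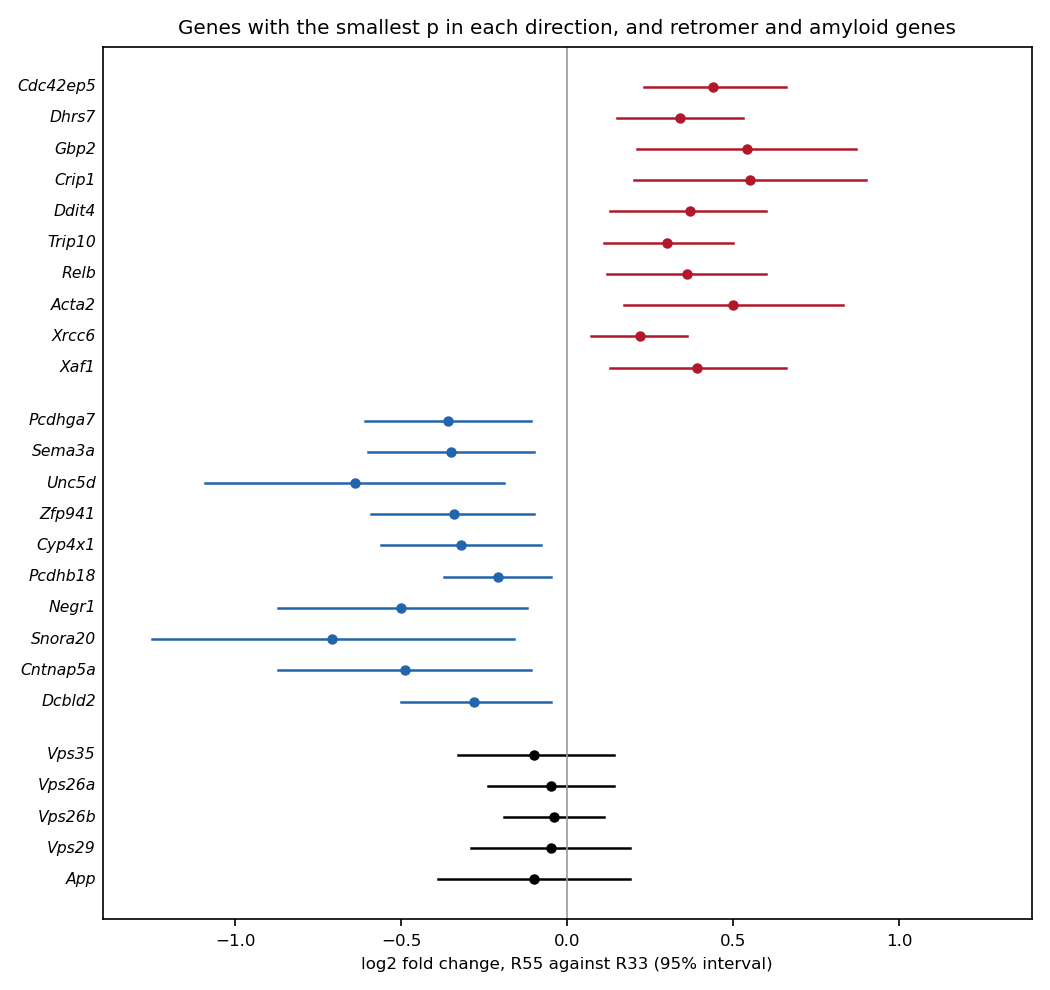
Log2 fold change, R55 against R33 in the contralateral hemisphere (horizontal axis), with its 95% interval as a line, for the 10 genes with the smallest p in each direction (red higher, blue lower) and for retromer and amyloid genes (black). The intervals of the coloured genes leave out 0, as their choice by p makes them, while those of the black genes span 0 and stay within ±0.5, Vps35 from -0.33 to 0.14 and App from -0.39 to 0.19.

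Transcripts of the drug target itself measured close together after the 2 compounds. Vps35, the cargo-binding core of the retromer (chr8:85986024-86026431), measured 63.5, 59.1, 60.6, 47.1 and 51.0 FPKM in P, AA, Q, R and AB and 63.3, 56.6, 67.8 and 52.7 FPKM in K, O, N and AD. The groups overlapped throughout, and the log2 fold change was -0.10 (95% interval -0.33 to 0.14). Its partners Vps26a, Vps26b and Vps29 had -0.05 (-0.24 to 0.14), -0.04 (-0.19 to 0.11) and -0.05 (-0.29 to 0.19), with the sign of Vps26b turning when the length trend was removed and that of Vps29 turning without N. All 12 tested genes of the retromer core and its recruiting factors had intervals within ±0.5, with 0 at an unadjusted p under 0.05 and a median of -0.04, which was 0.02 with the length trend removed. Among 17 sorting nexins and WASH complex genes, which shape the endosomal tubules, 0 passed and 16 intervals lay within ±0.5.

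Cargo receptors of the retromer were mostly negative, against 45.1% of all tested genes. Of 19 tested cargo and Vps10-domain receptor genes 18 were negative, with a median log2 fold change of -0.11, and 1 was lower at an unadjusted p under 0.05 (background 0.601%). That was Lrp8, a receptor for reelin and apolipoprotein E, at 6.52 to 8.45 FPKM after R55 and 7.21 to 10.2 FPKM after R33 (-0.23, -0.45 to -0.00). The bridge lipid transfer genes of the Vps13 family gave 9 of 10 negative and a median of -0.12, with Vps13a alone past an unadjusted p of 0.05 (-0.26, -0.51 to -0.00). With the length trend removed these medians were -0.01 and 0.01, and 0 genes of either list passed an unadjusted p of 0.05.

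App itself measured 756, 617, 615, 608 and 567 FPKM in P, AA, Q, R and AB and 731, 715, 660 and 605 FPKM in K, O, N and AD, with overlapping groups and a log2 fold change of -0.10 (95% interval -0.39 to 0.19). How reads of the human transgenes were counted is not given in the sources used here. Psenen, a subunit of gamma-secretase, was the 1 of 17 App and secretase genes at an unadjusted p under 0.05 (0.25, 0.05 to 0.46). Of all tested genes 2.03% passed that threshold in either direction. With the length trend removed, 0 of the 17 passed. Among 30 lysosome and autophagy genes 1 was past an unadjusted p of 0.05 in the main fit (background 2.03%). It was Tfeb, the transcription factor that switches on lysosomal genes. Tfeb measured 4.21, 5.81, 4.56, 4.42 and 4.75 FPKM after R55 and 3.5, 3.70, 3.35 and 3.88 FPKM after R33, with no overlap (0.32, 0.05 to 0.58). The list of which it is a member had a median of only 0.06.

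Synaptic genes showed small negative medians and almost no single gene past the unadjusted threshold. Of all tested genes 45.1% were negative, and 0.601% were lower at an unadjusted p under 0.05. The counts of negative members were 22 of 25 postsynaptic density scaffolds, 15 of 20 active zone scaffolds, 17 of 24 glutamate receptor subunits, 18 of 24 synaptic vesicle genes and 15 of 20 calcium channel and release genes. Their medians were -0.08, -0.15, -0.07, -0.05 and -0.09. The exception was Erc2, a scaffold of the active zone, at 16.7 to 20.03 FPKM after R55 and 24.9 to 27.6 FPKM in the R33 mice K, O and N, with AD at 17.04 FPKM (log2 fold change -0.34, 95% interval -0.64 to -0.04). With the length trend removed, 0 of the 20 active zone scaffolds passed.

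Log2 fold changes ran down with gene length over the whole table. The median was 0.13 in the shortest decile of genes (30 to 1195 bp) and -0.10 in the longest (6840 to 31327 bp), crossing 0 near the middle. Of the shortest decile 4.31% measured higher and 0.308% lower at an unadjusted p under 0.05, and of the longest 0.0771% and 1.62%. The slope of log2 level on doubling of length, relative to the other libraries, was -0.167 in Q, -0.050 in AB, -0.043 in AA and -0.053 in AD, and 0.007 to 0.054 in P, R, K, O and N. Once a length trend was taken out of each library the synaptic medians became 0.01, -0.04, 0.00, -0.04 and 0.01 in the same order. The interferon list gave 14 of 26 genes at an unadjusted p under 0.05 and a median of 0.43 with that correction.

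**Figure D3:**
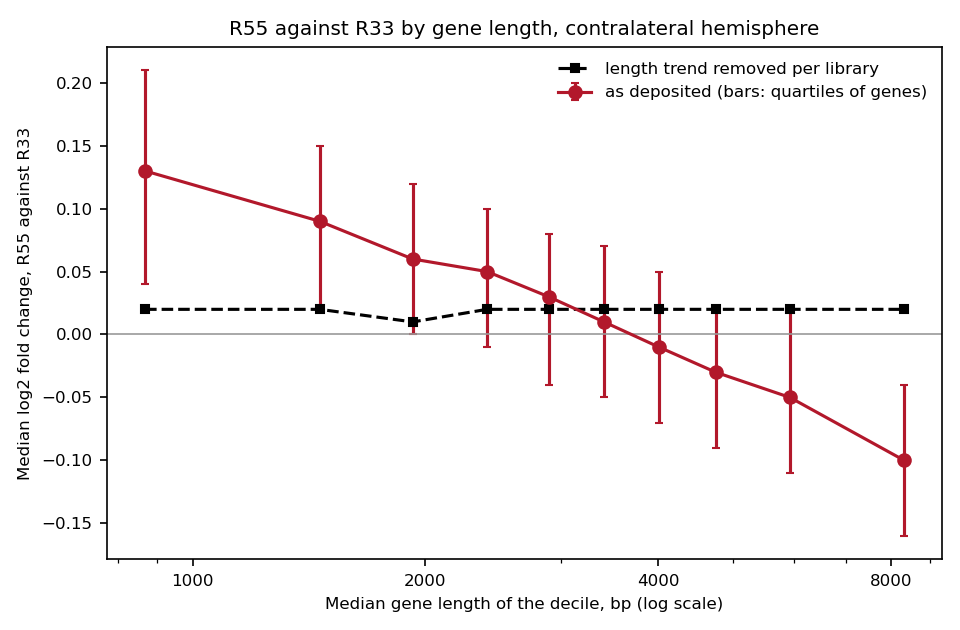
Median log2 fold change, R55 against R33 in the contralateral hemisphere (vertical axis), in each decile of tested genes by length (horizontal axis, bp, log scale). Points with bars (quartiles of genes) run from 0.13 in the shortest decile to -0.10 in the longest, while squares, with the length trend removed per library, stay at 0.01 to 0.02.

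Short genes of housekeeping complexes followed the other end of this trend. Of all tested genes 54.9% were positive. Of 82 cytosolic ribosomal protein genes 81 were positive with a median of 0.22, and of 79 nuclear genes of oxidative phosphorylation 78 were positive with a median of 0.14. None in either list passed an unadjusted p of 0.05, and with the length trend removed the medians were 0.12 and 0.04. Of 41 proteasome genes 2 measured higher (background 1.43%), the immunoproteasome subunits Psmb9 and Psmb8. The list median was 0.09, and 1 gene passed with the length trend removed.

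Lists of other cell types and programs held few genes past the unadjusted threshold. None passed among 46 immediate early genes of neuronal activity, 21 clock genes, 20 oligodendrocyte genes, 16 astrocyte genes, 24 excitatory neuron genes and 21 interneuron genes, with medians of 0.11, -0.01, 0.15, 0.06, -0.14 and -0.04. Of 14 reactive astrocyte genes 2 measured higher (background 1.43%), Cxcl10 and Ch25h, an interferon-inducible cholesterol hydroxylase (0.33, 0.01 to 0.65). With the length trend removed, 1 of the 14 passed. Unfolded protein response and cholesterol genes had 0 of 30 and 0 of 25 with medians of 0.05 and -0.02. Genes of tissue next to the cortex varied between mice: the choroid plexus transporter Ttr ranged from 3.75 to 147 FPKM after R55 and from 7.85 to 706 FPKM after R33 (-1.44, -4.89 to 2.01). All 10 choroid plexus genes were negative with 0 past the threshold, and 10 of 11 striatal genes were negative with a median of -0.20, also with 0. Hippocampal genes went the other way, with 7 of 10 positive, 0 past the threshold and a median of 0.20, led by C1ql2 of the dentate gyrus at 0.568 to 26.2 FPKM after R55 and 0.725 to 8.31 FPKM after R33 (1.16, -0.63 to 2.96). The part of these tissues in the other differences was not tested.

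**Figure D4:**
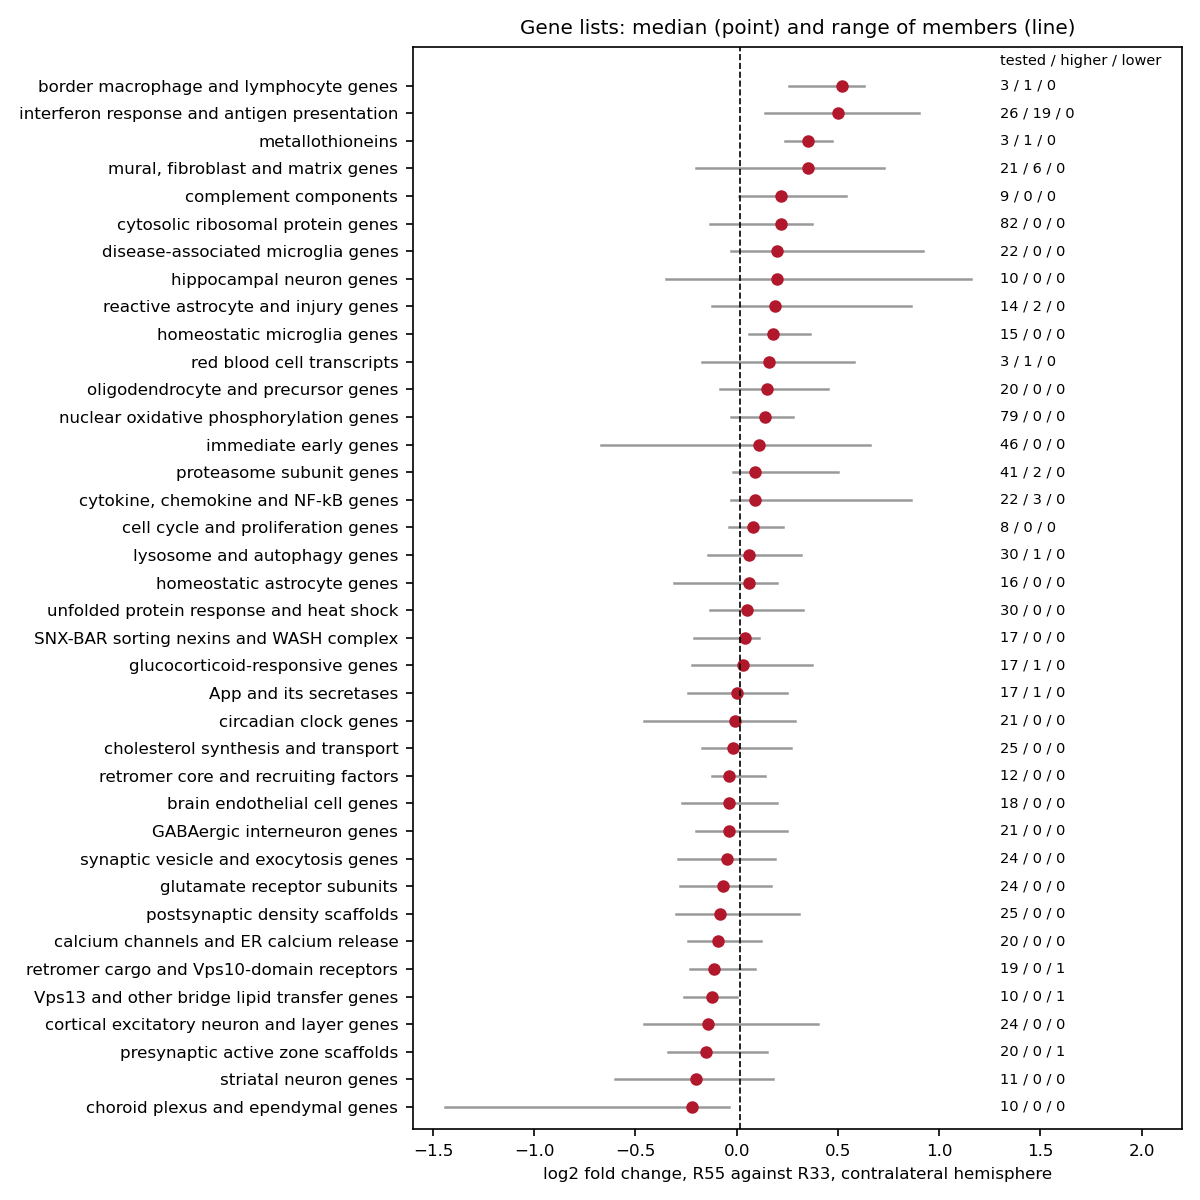
Median (point) and range (line) of the log2 fold change of the members of each gene list, R55 against R33 in the contralateral hemisphere (horizontal axis), with the numbers tested, higher and lower at an unadjusted p under 0.05 at the right. The dashed line is the median of all tested genes, 0.01, and the interferon list, with 19 of 26 higher, and the mural list, with 6 of 21, hold the most.

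Whether R55 and R33 differed by the same amount on the injected side was tested within mice. For the 9 mice with both hemispheres, the contralateral minus injected log2 level of each gene was compared between the drugs. This difference between hemispheres reached an adjusted p under 0.05 in 0 genes (0.0%, smallest adjusted p 0.294). At an unadjusted p under 0.05 there were 753 genes higher contralaterally (5.8%) and 554 lower (4.27%). On the injected side alone 0 genes (0.0%) passed adjustment, and 241 (1.86%) and 272 (2.1%) measured higher and lower at an unadjusted p under 0.05.

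Of the genes with the smallest p of this difference, 3 in each direction are given. Plekhb1, a membrane-binding protein of glia and photoreceptors, measured 199 to 244 FPKM after R55 and 151 to 197 FPKM after R33 contralaterally. On the injected side it measured 118 to 217 FPKM after R55 and 158 to 294 FPKM after R33, so the order of the drugs turned, and the difference between hemispheres was 0.83 (95% interval 0.49 to 1.17). Mbp, myelin basic protein, named after its values were seen, had a difference of 0.86 (0.51 to 1.22), with log2 fold changes of 0.31 contralaterally and -0.55 on the injected side. Bmp4, a growth factor of the bone morphogenetic family, had 0.69 (0.41 to 0.98) and Hacl1, a peroxisomal lyase, 0.50 (0.30 to 0.70). In the other direction stood Bmp3 at -0.81 (-1.10 to -0.52), the potassium channel subunit Kcnf1 at -0.73 (-1.01 to -0.45) and the adhesion gene Cntnap3 at -0.62 (-0.83 to -0.40).

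By list, 11 of 20 oligodendrocyte genes were higher contralaterally in this difference at an unadjusted p under 0.05 (background 5.8%), with a median of 0.47. Their medians were 0.15 contralaterally and -0.29 on the injected side, where 5 measured lower (background 2.1%). Immediate early genes went the other way, with 13 of 46 lower (background 4.27%) and a median of -0.16, and 17 of them measured higher after R55 on the injected side (background 1.86%). Of 82 ribosomal protein genes 19 were higher, with a median of 0.42, and all 3 metallothioneins were higher with a median of 0.71. The mean log2 level of both lists moved most between hemispheres in Q and AD. In Q the ribosomal level was 7.38 contralaterally and 6.5 on the injected side, and in AD 7.0 and 7.71. For metallothioneins these levels were 8.86 and 7.61 in Q, and 8.32 and 9.09 in AD. Q also had the steepest contralateral slope on gene length, at -0.167, and the part of that slope here was not tested. Genes of neighbouring tissue also differed. The choroid plexus list had a median difference of 0.96 with 10 of 10 positive and 4 higher. On the injected side its median was -1.41 with 9 of 10 lower. Its mean log2 level there was 3.93 in K and 4.3 in N, against 1.35 to 2.23 in the other R55 and R33 mice. The striatal list had medians of 0.59 and -0.64. Its injected level was 4.84 in N and 2.45 to 2.78 in the other R55 and R33 mice. The part of these tissues in the difference between hemispheres was not tested. For the interferon list the injected side had a median of 0.22 with 23 of 26 positive and 0 past an unadjusted p of 0.05, and the difference between hemispheres was higher for 2 of 26, near the background of 5.8%, with a median of 0.31. Ifit3 on the injected side measured 38.6 FPKM in the R55 mouse AA and 19.6 FPKM in the R33 mouse AD, both above their contralateral values, and 3.91 to 11.7 FPKM in the other mice. No member of the list passed adjustment in this test. It compared the gap between the drugs on the 2 sides, not the levels of the hemispheres themselves.

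**Figure D5:**
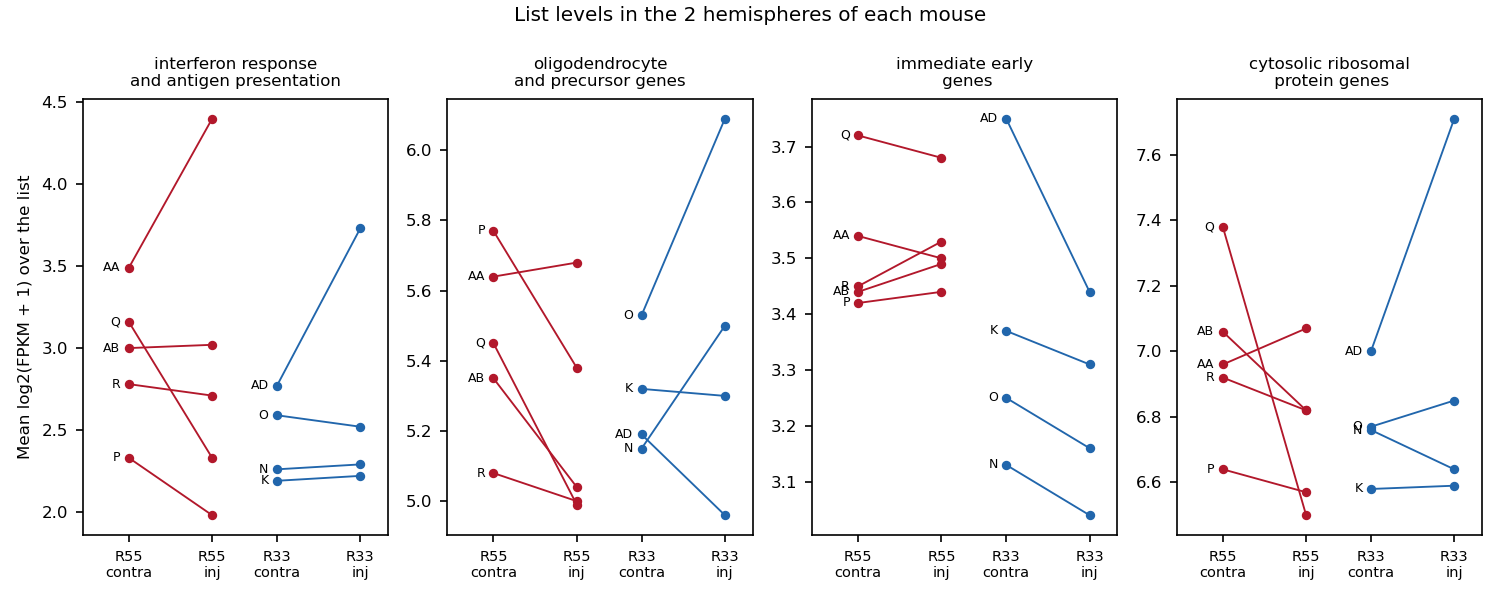
Mean log2(FPKM + 1) of 4 gene lists (vertical axis) in the contralateral and injected hemisphere of each mouse with both libraries, 1 line per mouse, red for R55 and blue for R33. Interferon levels are highest in AA on both sides, 3.49 contralaterally and 4.40 on the injected side, and immediate early levels are lower on the injected side in every R33 mouse.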

How the data were processed

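RNA was extracted from cortical blocks of separate mice and sequenced as poly(A) libraries with a stranded kit. The authors aligned the reads to GRCm39 with HISAT2 and deposited 1 table of FPKM values; the counting tool is not given in the sources used here, and the authors tested genes with DESeq2. The table holds 32 libraries, of which 27 match a labelled sample and 5 were not used. Gene lengths and library totals were recovered from the FPKM steps, since 100% of values above 0 were whole fragments within 0.01. No gene with an mt- symbol, the form used for mitochondrially encoded genes, was in the table, so such genes were not analysed here.

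The filter on low values required 1 FPKM on average across the 27 libraries and left 12976 genes. These were tested two-sided with limma 3.58.1 in R 4.3.3 on log2(FPKM + 1), a scale that understates changes of low genes, with an intensity trend, and p-values were adjusted by Benjamini-Hochberg across the whole filtered table. The 4 vehicle contralateral libraries shared the estimate of spread. The difference between hemispheres was fitted on within-mouse differences. The fit was also run on simulated counts with the same dispersion for every gene and no label series or length trend. That run cannot show how the fit behaves where libraries vary as these do. Exact permutation tests of library measures over 126 splits could not go below p = 0.016.

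Named genes were the 10 with the smallest p in each direction, up to 4 members per list with the smallest p, Vps35, Vps26a, Vps26b, Vps29 and App, and the 3 genes per direction with the smallest p between hemispheres. The comparison, the members and the lists were chosen with earlier results of these data known. Genes withheld from this account are not reported here. Alternatives changed the libraries fitted, scaling, filter, pseudocount (0.1), spread model, label series and length trend, or left out each library. GENCODE release 39 gave positions for 12635 tested genes. Contralateral libraries correlated at 0.965 to 0.996, and no pair agreed within sampling noise.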

Additional observations from a re-analysis of the deposited data

Results flagged for a closer look

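In groups of 4 or 5 libraries, 1 library stood far from the rest by Dixon's gap test in 7 of 180 groups examined, and chance gives about 1 in 20. Among the R33 mice, AD was lowest for Cntnap5a at 2.85 FPKM, and O had the highest share of fragments in the 10 most abundant genes at 4.06%. Among the R55 mice, R had the highest mean log2 level of homeostatic astrocyte genes at 7.04, the lowest of GABAergic interneuron genes at 4.2 and the lowest of cortical excitatory neuron genes at 3.68. Q had the highest level of unfolded protein response and heat shock genes at 5.41, and AA the highest of cell cycle genes at 2.54.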

How the results depend on the processing

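No gene passed adjustment under any of the 24 alternatives. The 264 genes at an unadjusted p under 0.05 became 586 with no filter on low values and 79 to 939 with 1 library left out (79 without K, 86 without N, 135 without AA, 566 without R, 790 without P and 939 without AD). The interferon count of 19 became 12 with only the R55 and R33 libraries, 0 with all 27 libraries and the correlation within mice (0.362) modelled, 3 in the 1-letter mice, and 3 to 23 with 1 library left out. Its median of 0.50 ranged from 0.36 to 0.71. The split of 186 higher against 78 lower became 170 against 118 with median-of-ratios scaling, 457 against 333 without P and 484 against 455 without AD. Of 194 named genes, 186 had 1 sign under every alternative, and 0 of the 55 with an unadjusted p under 0.05 changed sign. Most of these genes were picked by a small p in the main fit, and the alternatives reuse its libraries. Their signs were thus likely to hold, so these counts are no test of the differences.

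The difference between hemispheres is paired by mouse, and its 1307 genes at an unadjusted p under 0.05 became 609 with no replicate block and 847 (without AD) to 1661 with 1 mouse left out, with 0 passing adjustment each time. The cause of these shifts was not tested. With 4 and 5 mice the 95% interval reached a median of 0.24 log2 either way, which limits what could be told apart.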
